A study of Tupaia belangeri with 15 samples.

Results

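L-cones are the cone photoreceptors that carry the long-wavelength opsin, and they were chosen here by RNA markers among the nuclei of tree shrew (TS, Tupaia belangeri) retinas. A nucleus was taken as an L-cone when it held at least 1 UMI (unique molecular identifier, 1 counted RNA molecule) of at least 3 of the cone genes ARR3, PDE6H, PDE6C, CNGB3 and GNAT2 and 0 UMIs of OPN1SW, GAD1, GAD2 and CLUL1. This rule found 17291 L-cones among 119765 nuclei that passed filters (over 200 but below 6000 genes, mitochondrial UMIs below 5%), or 14.4%, out of 120437 barcodes in the 15 matrices. The study profiled 15 whole retinas of TS by droplet snRNA-seq on nuclei, with 5 retinas each in the groups Infancy, Mature and Senile, and it compared the stages to follow growth and ageing of the retina. No genotype, strain or agent is given for any group, and tissue, nucleus isolation and platform were shared by all of them. The labels give no sex either, so that sex was not a term of the models here, whereas the study fitted it. The senile animals came from another institute than the infant and mature animals, so stage and source cannot be told apart in any comparison with the senile group. The labels name the 5 libraries of a stage as separate samples, and p-values measure the spread between those retinas.

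Cones are the photoreceptors of daylight vision, and the tree shrew is a diurnal mammal whose retina is dominated by them. In a cone, light absorbed by the opsin activates the cone transducin, transducin relieves the inhibition of the phosphodiesterase PDE6, the fall in cyclic GMP closes the cyclic nucleotide-gated channels of the outer segment, and the cell reduces its glutamate release at the ribbon synapse of the pedicle. Opsin kinase, arrestin, the RGS9 complex, recoverin, guanylate cyclase and the sodium-calcium, potassium exchanger then end the response and restore the dark state.

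The marker genes set the membership and are given without a test. Of the L-cones, 5510 (31.9%) held 3 of the markers and 11781 (68.1%) held 4. None held all 5, because CNGB3, a subunit of the cone cyclic nucleotide-gated channel, was listed with 0 UMIs in every matrix, so that the rule acted as 3 or more of 4 genes. The antisense feature of that locus, CNGB3-AS-2, had 11628 UMIs and was not used in its place. Among the 18875 nuclei with 3 or more markers, 608 were left out for OPN1SW, the opsin of S-cones, and 976 for the amacrine cell gene GAD1 or the rod gene CLUL1, while GAD2 was listed with 0 UMIs in every matrix and left out none. The L-cones of a retina numbered 855, 1081, 862, 1173 and 464 in Infancy 1 to 5, 2393, 1374, 1402, 604 and 194 in Mature 1 to 5, and 1543, 1774, 1363, 918 and 1291 in Senile 1 to 5. Their counts summed to 2013314 to 12532937 UMIs a retina, and the median L-cone held 1651 to 10372 UMIs, against 1274 to 5304 in nuclei of the same retinas with 0 UMIs of all cone markers, which are called cone-marker-free nuclei here.

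ARR3, the cone arrestin that binds activated opsin, summed over the L-cones of a retina to 4764 ± 486 CPM in infant, 4675 ± 123 CPM in mature and 3828 ± 937 CPM in senile retinas (SD, n = 5), where CPM is UMIs per 1000000 UMIs of those nuclei. GNAT2, the alpha subunit of cone transducin, lay at 898 ± 202 CPM in infant, 906 ± 169 CPM in mature and 748 ± 151 CPM in senile retinas (SD, n = 5). PDE6C, the catalytic subunit of the cone phosphodiesterase, lay at 854 ± 65.1 CPM in infant, 728 ± 252 CPM in mature and 649 ± 225 CPM in senile retinas (SD, n = 5). These levels are conditional on the rule, which asks for UMIs of these genes, and the ranges of the stages overlapped for all 3 genes. PDE6H, the inhibitory subunit that the study discusses for cones of senile animals, lay at 643 ± 144 CPM in infant, 658 ± 209 CPM in mature and 817 ± 167 CPM in senile retinas (SD, n = 5). Its level is conditional on the rule as well. The share of L-cones with PDE6H split by the Cell Ranger version in the labels. It was 74.8 to 88.9% in retinas labelled 5.0.1 and 92.1 to 99.1% in those labelled 7.0.1.

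OPN1LW, the long-wavelength opsin itself, was not used by the rule and checks the label. At least 1 UMI of it was found in 54.6 to 92.1% of the L-cones of a retina and in 0.744 to 4.92% of the cone-marker-free nuclei, whose median depth was lower as given above. With every nucleus thinned to 1000 UMIs, and shallower nuclei left out (185 of the L-cones), the shares were 20.6 to 55.2% and 0.381 to 2.21%. The share in L-cones thus lay above the background in every retina at equal depth. The number of markers moved with it. Among L-cones with 4 markers 63.5 to 96.3% held OPN1LW, among those with 3 markers, just inside the threshold, 3.45 to 89.8%, and among the 9438 nuclei with 2 markers, just outside it, 3.35 to 41.6%.

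A small share of the members held few marker UMIs, and in the retinas labelled 7.0.1 few of these held OPN1LW. The markers made up fewer than 20 of 10000 UMIs in 1408 L-cones (8.14%), and 683 lay within 25% of that value, which was set after the data had been seen. These nuclei were 1.51 to 3.24% of the L-cones in the 7 retinas whose labels give Cell Ranger 5.0.1 (Infancy 1 to 3, Mature 1 and 2, Senile 1 and 2) and 5.01 to 46.4% in the 8 retinas labelled 7.0.1. Mature 5 held the highest share, 90 of its 194. OPN1LW was found in 3.33 to 38.6% of these nuclei over the retinas labelled 7.0.1 (median 11.9%), in 43.3 to 80.0% over those labelled 5.0.1 (median 52.4%) and in 57.2 to 99.0% of the 15883 others over all retinas. The low-marker nuclei of the retinas labelled 5.0.1 were deeper than the other L-cones there, with medians over retinas of 7707 and 2991 UMIs, against 6439.8 and 7129 UMIs in those labelled 7.0.1. In the pooled UMIs of these low-marker nuclei, bipolar cell markers stood at 0.994 times the level of cone-marker-free nuclei, amacrine cell markers at 0.791 times and Müller cell markers at 0.831 times. In the remaining L-cones the same ratios were 0.172, 0.187 and 0.246. GAD1, which the rule holds at 0 in L-cones, made up 1.91 of the 731 CPM of the amacrine list in cone-marker-free nuclei. The shares of nuclei, the counts of changed features and the tests of the genes named by rule that follow were therefore also computed over the 15883 L-cones with at least 20 marker UMIs per 10000.

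**Figure D1:**
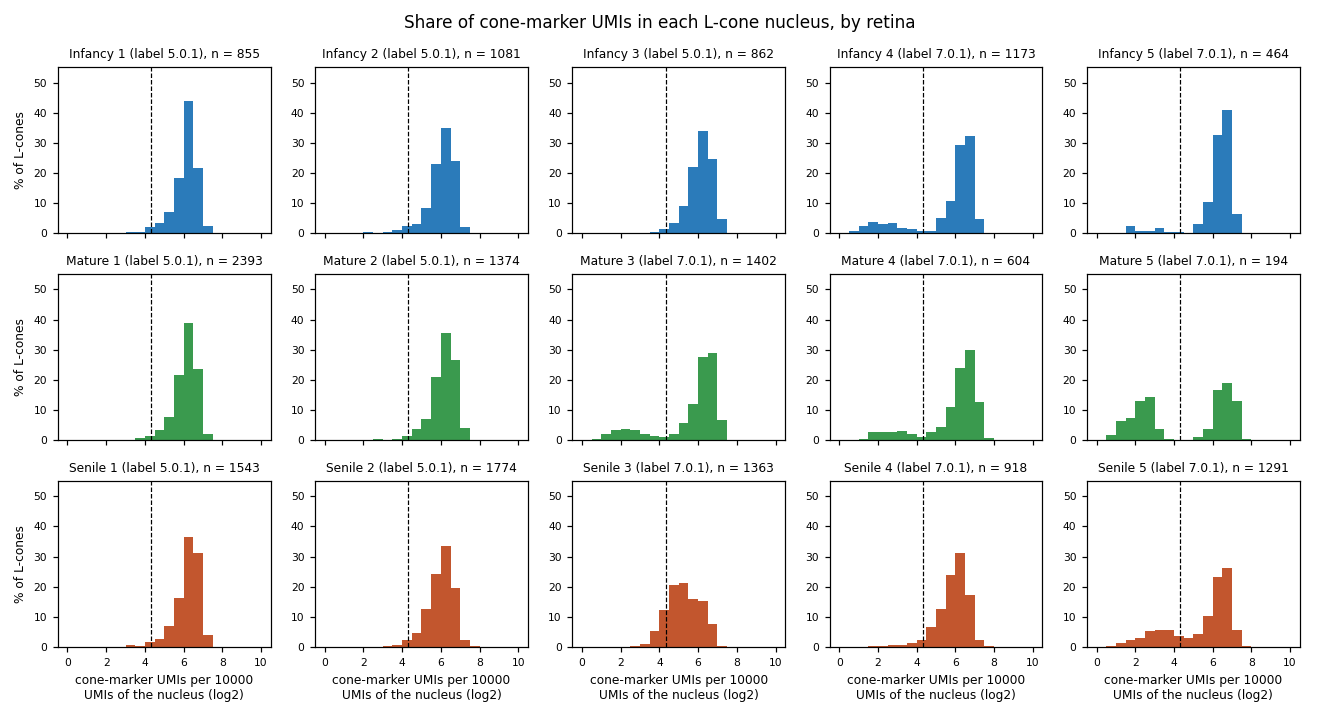
Histograms of cone-marker UMIs per 10000 UMIs of a nucleus (horizontal, log2 scale) against the percent of L-cones of each of the 15 retinas (vertical); the dashed line marks 20 per 10000. A second group of nuclei below the line is visible in Infancy 4 and 5, Mature 3 to 5 and Senile 5, above all in Mature 5, while the nuclei below the line in Senile 3, Senile 4 and the retinas labelled 5.0.1 form the tail of a single peak.

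Markers of other cell types were found in the L-cone counts of every stage. Over the 15 retinas their mean summed CPM stood at 0.268 times that of cone-marker-free nuclei for bipolar, 0.333 times for Müller cell, 0.614 times for vessel, 0.765 times for rod and 1.08 times for pigment epithelium markers. The 8 bipolar cell markers summed to 309.6 to 583 CPM in infant, 225 to 1155 CPM in mature and 182 to 858 CPM in senile L-cones. These sums hold the feature GRIK1, which fell under the filter on low counts of the tests below. They leave out its numbered copy GRIK1li1, given further below, and so understate the RNA of this gene. The 10 rod markers summed to 79.7 to 205, 55.1 to 204 and 96.4 to 249 CPM, with the rod channel gene CNGA1 listed at 0 and CLUL1 held at 0 by the rule. The 5 Müller cell markers summed to 125 to 223, 97.3 to 449 and 133 to 522 CPM, with medians of 196, 234 and 299 CPM. The ranges of the 3 stages overlapped for these lists. Those of the 4 pigment epithelium markers did not overlap between infant and senile L-cones, at 2.94 to 8.54 CPM in infant, 8.04 to 46.2 CPM in mature and 12.8 to 185 CPM in senile L-cones, and in the L-cones with at least 20 marker UMIs per 10000 at 3.10 to 8.60 CPM in infant and 13.1 to 176 CPM in senile retinas. In cone-marker-free nuclei the same sums overlapped, at 4.00 to 69.1 CPM in infant and 4.93 to 59.6 CPM in senile retinas. The part of all these markers in the differences between stages was not tested. One library stood apart. In Senile 3 the median share of cone markers in an L-cone was 37.2 per 10000 UMIs against 61.1 to 88.2 in the other retinas. TTR, a member of the pigment epithelium list, reached 181 CPM there, most of the 185 CPM of that list. The study also describes TTR-positive bipolar cells. A doublet score called 5.65 to 18.1% of the L-cones and 3.38 to 7.88% of all nuclei of a retina. Of the low-marker L-cones it called 46.2 to 74.3% in the retinas labelled 5.0.1 and 3.41 to 32.6% in those labelled 7.0.1, against 5.98 to 18.9% of the other L-cones. No pair of libraries shared more than 30 barcodes or more than 2 L-cone barcodes.

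L-cones took a larger share of the nuclei in senile than in infant retinas under the planned test, but the call did not hold under many other settings. They made up 11.1, 12.1, 8.75, 13.4 and 6.59% of the nuclei that passed in Infancy 1 to 5. In Mature 1 to 5 they made up 29.1, 14.5, 15.5, 6.37 and 4.59%. In Senile 1 to 5 they made up 20.4, 23.8, 25.7, 12.8 and 13.5%. All 5 senile retinas lay above the infant mean and 4 lay above every infant retina, Senile 4 being below Infancy 4, while the mature retinas spanned a wider range than either.

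The mean share was 19.2 ± 5.88% in senile and 10.4 ± 2.71% in infant retinas (SD, n = 5), a difference of 8.85 percentage points (2-sided exact permutation p = 0.0159, Benjamini-Hochberg adjusted over the 3 stage pairs p = 0.0476; 5 against 5 retinas allow no p below 0.00794). Mature retinas held 14.02 ± 9.71%, and differed from infant retinas by 3.63 points (exact permutation, adjusted p = 0.508) and from senile retinas by 5.22 points (adjusted p = 0.5). Over L-cones with at least 20 marker UMIs per 10000, senile retinas exceeded infant ones by 7.89 points (exact permutation, adjusted p = 0.143), over nuclei thinned to 1000 UMIs by 5.54 points (adjusted p = 0.19), over nuclei with at least 4 markers by 3.65 points (adjusted p = 0.19) and with permutation within Cell Ranger version by 9.39 points (adjusted p = 0.06). The call was also lost without any 1 of the 5 infant retinas, with differences of 7.90 to 9.59 points and exact permutation adjusted p-values of 0.0952 to 0.167. It held with doublets removed (8.72 points, exact permutation adjusted p = 0.0476) and without any 1 of the senile retinas (7.23 to 10.5 points, adjusted p = 0.0238 to 0.0476). Without Mature 1, the mature minus infant difference became -0.141 points. A share of recovered nuclei is relative to all other nuclei of the retina, so that more L-cones and fewer nuclei of other types cannot be told apart. The genes of the rule were also more abundant outside the L-cones of most senile retinas. In nuclei with fewer than 3 markers they pooled to 1.08 to 1.92 per 10000 UMIs in infant and 1.35 to 2.17 in mature retinas. In senile retinas the range was 1.33 to 6.88, with only Senile 1 within the infant range. What this adds to the L-cone share was not tested.

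**Figure D2:**
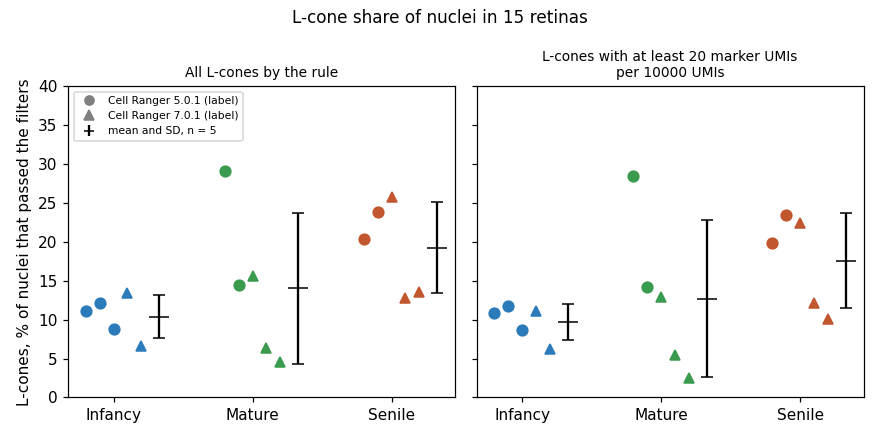
Percent of nuclei that were L-cones (vertical) in each retina of the 3 stages, for all L-cones (left) and for those with at least 20 marker UMIs per 10000 UMIs (right); circles are retinas labelled Cell Ranger 5.0.1, triangles those labelled 7.0.1, and bars show mean and SD of 5 retinas. The senile mean is 19.2% and the infant mean 10.4% on the left, and Mature 1 stands at 29.1%.

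Phototransduction genes of L-cones did not pass the test between stages. Counts were summed over the L-cones of each retina and analysed with edgeR's quasi-likelihood test across 16586 features, with Cell Ranger version as a term and Benjamini-Hochberg adjustment over all of them. In the comparison of senile with infant retinas 1.42% of all features tested passed an adjusted p of 0.05, and in that of mature with infant retinas 1.05%. Of 26 phototransduction genes listed, 15 could be tested, 8 were listed at 0 UMIs (GNGT2, PDE6G, CNGA3, GUCA1A, GUCA1B, GUCY2F, AIPL1 and PDC), GNB3 and GRK1 had no feature, and 1 fell under the filter on low counts. None of the 15 passed in either comparison, with median log2 fold changes of -0.05 and -0.01 against 0.01 and -0.01 over all features tested.

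OPN1LW summed to 450.0, 582, 485, 369 and 477 CPM in the L-cones of Infancy 1 to 5. In Mature 1 to 5 it summed to 787, 579.7, 409.6, 299 and 361 CPM, and in Senile 1 to 5 to 845, 446, 430.2, 280.4 and 297 CPM. The stages overlapped widely, with Mature 1 and Senile 1 highest and a retina labelled 7.0.1 lowest in each stage. Stage means were 473 ± 76.6 CPM in infant, 487 ± 197 CPM in mature and 459.8 ± 228 CPM in senile retinas (SD, n = 5). The senile minus infant log2 fold change was -0.07, with a 95% interval of -0.51 to 0.38 (edgeR adjusted p = 0.952), and it turned to 0.25 in the 7 retinas labelled 5.0.1.

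Among genes that end the light response, GRK7, the kinase of cone opsins, lay at 407 ± 101 CPM in infant, 359.9 ± 62.9 CPM in mature and 289 ± 71.1 CPM in senile retinas (SD, n = 5), a senile minus infant log2 fold change of -0.54 (edgeR adjusted p = 0.326). RGS9, which accelerates the GTPase of transducin, lay at 849 ± 106 CPM in infant, 755 ± 113 CPM in mature and 636 ± 156 CPM in senile retinas (SD, n = 5) and had a log2 fold change of -0.49 (edgeR adjusted p = 0.229). Neither passed the test, and senile retinas overlapped infant ones for both. RCVRN, which encodes the calcium sensor recoverin, was the only member of the list whose senile and infant retinas did not overlap. It summed to 431, 368, 391, 363 and 369 CPM in Infancy 1 to 5 and to 495, 473, 626, 593 and 585 CPM in Senile 1 to 5. Its log2 fold change of 0.44 (SE 0.12) did not pass the test (edgeR adjusted p = 0.095), and 2.41% of all features tested had no overlap in this comparison.

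Restoration of the dark state was represented by GUCY2D, the guanylate cyclase of photoreceptors, and SLC24A2, the cone sodium-calcium, potassium exchanger. GUCY2D lay at 141 ± 63.2 CPM in infant, 133 ± 58.7 CPM in mature and 156 ± 99.7 CPM in senile retinas (SD, n = 5). In all 3 stages its retinas split by label rather than by stage, between 153 and 322 CPM in the 7 retinas labelled 5.0.1 and between 69.9 and 148 CPM in the 8 labelled 7.0.1. SLC24A2 lay at 2798 ± 252 CPM in infant, 2749.7 ± 329 CPM in mature and 2608 ± 636 CPM in senile retinas (SD, n = 5), with Senile 3 lowest at 1561 CPM. It did not pass (edgeR adjusted p = 0.843, senile against infant).

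**Figure D3:**
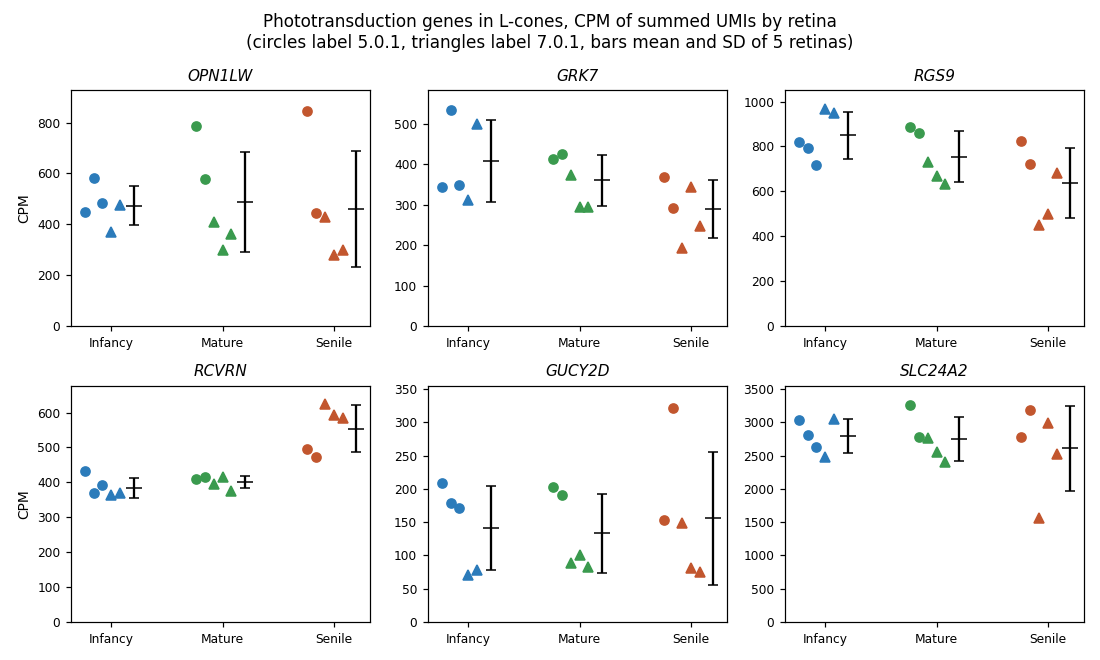
CPM of summed L-cone UMIs (vertical) for 6 phototransduction genes in each retina by stage; circles are retinas labelled 5.0.1, triangles those labelled 7.0.1, and bars show mean and SD of 5 retinas. RCVRN is higher in all senile than in all infant retinas, while the stages overlap for the other 5 genes and GUCY2D separates by label.

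The other lists of cone function gave the same picture between stages. None of the 11 visual cycle genes passed in either comparison (median log2 fold change 0.07 senile and 0.04 mature against infant). ABCA4, the retinoid flippase of the outer segment, lay at 957 ± 189.8 CPM in infant, 995 ± 191 CPM in mature and 763 ± 199 CPM in senile retinas (SD, n = 5), and RDH12, a retinol dehydrogenase of the inner segment, at 195 ± 41.0 CPM in infant, 166 ± 36.6 CPM in mature and 154 ± 35.0 CPM in senile retinas (SD, n = 5). Of 34 photoreceptor transcription factors 28 were tested and none passed (medians 0.07 and 0.13). THRB, the thyroid hormone receptor that directs cones to the long-wavelength opsin, lay at 772 ± 185 CPM in infant, 763 ± 261 CPM in mature and 726 ± 274 CPM in senile retinas (SD, n = 5), with a senile minus infant log2 fold change of -0.05 (95% interval -0.42 to 0.32, edgeR adjusted p = 0.958) that turned to 0.05 in the retinas labelled 5.0.1.

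Of 39 genes of the cone synapse 36 were tested and none passed (medians -0.12 and -0.0027). RIMS2, a scaffold of the active zone, lay at 4790.4 ± 261 CPM in infant, 4515 ± 545 CPM in mature and 4587 ± 1202 CPM in senile retinas (SD, n = 5). PCLO, a large active zone protein, lay at 1411 ± 62.7 CPM in infant, 1391 ± 129.9 CPM in mature and 1283 ± 196 CPM in senile retinas (SD, n = 5). Of 35 genes of the outer segment and cilium 28 were tested and none passed, although 24 of the 28 senile minus infant log2 fold changes were negative (median -0.19, range -0.52 to 0.47). PROM1, which shapes the disc membranes, lay at 901 ± 107 CPM in infant, 808 ± 133 CPM in mature and 861 ± 308 CPM in senile retinas (SD, n = 5). EYS, a secreted protein of the photoreceptor cilium, lay at 2223 ± 749.6 CPM in infant, 1819.9 ± 621 CPM in mature and 2289.8 ± 1092 CPM in senile retinas (SD, n = 5).

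Some of these genes separated L-cones from the other photoreceptors. As a description with no test, UMIs were pooled over all L-cones, over 307 S-cones (3 or more cone markers and at least 2 UMIs of OPN1SW) and over 973 rods (UMIs of at least 3 of PDE6A, PDE6B, CNGA1, CNGB1, SAG, NR2E3 and GNAT1 and fewer than 3 cone markers). OPN1SW, PDE6A and SAG are thus fixed by these rules. OPN1LW stood at 485 CPM in L-cones, 100.4 CPM in S-cones and 15.8 CPM in rods. THRB stood at 727, 153 and 120.2 CPM. Both were thus several times higher in L-cones than in S-cones. The retinal repressor SAMD7 stood at 417, 154 and 10.4 CPM and EYS at 2059.6, 694 and 22.4 CPM. DACH2, a transcriptional cofactor, went the other way with 537 CPM in L-cones, 1002 CPM in S-cones and 44.7 CPM in rods. SAG, the rod arrestin, stood at 99.6 CPM in L-cones against 2419 CPM in S-cones and 3342 CPM in rods. PDE6H was close in both cone types, at 719 and 695 CPM, although the rule used it.

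Across all features, calls were found in both comparisons with infancy. In senile against infant L-cones 236 of 16586 features passed, 204 higher (1.23% of those tested) and 32 lower (0.193%). In mature against infant L-cones 174 passed, 149 higher (0.898%) and 25 lower (0.151%). Both comparisons share the infant retinas. Called features whose retinas of the 2 stages did not overlap numbered 193 of the 236 and 147 of the 174, where 2.41% and 2.38% of all features tested did not overlap. Between senile and mature L-cones edgeR called 0 features, although 1439 reached an unadjusted p of less than 0.05, while 40 passed in DESeq2. Numbered copies of genes, which share sequence with other features and are therefore uncertain, made up 45.1% of the features higher in senile and 43.6% of those higher in mature L-cones, against 10.8% of the features tested. Single named genes made up 57.0% of the features tested, and 31 of the 204 higher (15.2%) and 12 of the 32 lower features (37.5%) in senile L-cones, and 30 of 149 (20.1%) and 4 of 25 (16%) in mature L-cones.

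The genes higher after infancy included NRG1, a ligand of ErbB receptors. It summed to 23.2, 20.7, 21.6, 20.1 and 24.96 CPM in Infancy 1 to 5. In Mature 1 to 5 it summed to 139, 104, 92.0, 57.2 and 79.0 CPM and in Senile 1 to 5 to 87.7, 106, 68.7, 84.5 and 63.3 CPM. Every mature and senile retina was thus above every infant retina. The rule that named this gene asked for no overlap between the stages compared, so that the separation adds no support. The same holds for the genes below that were named by rule for their change between stages. NRG1 rose 4.29-fold from infancy to maturity (log2 2.10, SE 0.18, edgeR adjusted p = 1.21e-05) and was 3.61-fold higher in senile than in infant L-cones (log2 1.85, SE 0.18, edgeR adjusted p = 1.37e-05). In cone-marker-free nuclei of the same retinas its log2 fold changes were 0.33 and -0.12.

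To ask whether a change was of another size in L-cones than in the 61176 cone-marker-free nuclei (51.1% of those that passed), the interaction of stage and nucleus class was tested over 23496 features with the retina as a block. The cone-marker-free class was an unequal part of the retinas, from 7800 of 9852 nuclei in Infancy 3 to 2025 of 9560 in Senile 5. What this unequal make-up adds to the differences was not tested. For senile against infant retinas 61 features passed (0.26%), 37 with a more positive (0.157%) and 24 with a more negative change in L-cones (0.102%). For mature against infant retinas 23 passed (0.0979%), 20 more positive (0.0851%) and 3 more negative (0.0128%). Most calls in L-cones were not of this kind. Of the 236 features called in senile against infant L-cones 149 were also called, in the same direction, in cone-marker-free nuclei, where 369 features were called (1.57% of those tested there), and 23 had a called difference. Of the 174 called in mature against infant L-cones 99 were also called there in the same direction, of 191 (0.81%), and 17 had a called difference. NRG1 was among them in both comparisons, with differences of change of 1.98 (SE 0.26, edgeR adjusted p = 0.00137) and 1.91 (SE 0.26, edgeR adjusted p = 0.00171) on the log2 scale.

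IL1RAPL1, an adhesion protein that organizes synapses, followed the same course. It summed to 286, 337, 277, 284 and 367 CPM in infant, 1122, 1115, 729, 975 and 782 CPM in mature and 851, 1359, 672, 1678 and 1309 CPM in senile L-cones. No mature or senile retina overlapped an infant one, and the senile retinas were the most spread. The increase was 3.02-fold in mature (log2 1.60, SE 0.23, edgeR adjusted p = 0.00108) and 3.63-fold in senile L-cones (log2 1.86, SE 0.24, edgeR adjusted p = 1.90e-04). In cone-marker-free nuclei the level was 773 ± 83.4, 805 ± 176 and 1031 ± 173 CPM over the 3 stages, and the difference of change passed in both comparisons (edgeR adjusted p = 0.00171 and 0.00179).

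A pair of phosphatase genes rose with them. CDC14B, a dual-specificity phosphatase, summed to 15.7, 20.2, 18.7, 19.9 and 22.7 CPM in infant, 75.2, 40.4, 64.5, 57.5 and 70.5 CPM in mature and 54.9, 47.9, 51.5, 73.7 and 60.2 CPM in senile L-cones. PPP2R2C, a regulatory subunit of protein phosphatase 2A, summed to 17.3, 21.6, 16.2, 20.0 and 15.1 CPM in infant, 63.8, 42.3, 43.0, 36.9 and 57.1 CPM in mature and 69.2, 65.8, 46.4, 117 and 50.7 CPM in senile L-cones. For both genes the infant retinas lay below all others. CDC14B was 3.04-fold higher in mature (log2 SE 0.17, edgeR adjusted p = 5.06e-05) and 2.72-fold higher in senile L-cones (log2 SE 0.17, edgeR adjusted p = 9.71e-05). PPP2R2C was 2.66-fold (log2 SE 0.26, edgeR adjusted p = 0.00835) and 3.70-fold higher (log2 SE 0.26, edgeR adjusted p = 4.04e-04). In cone-marker-free nuclei PPP2R2C stood at 80.9 ± 15.7, 88.9 ± 30.4 and 86.6 ± 21.3 CPM, above every stage of L-cones on average. Leaving out the low-marker nuclei made the senile log2 fold change larger, 2.43 in place of 1.89. The change differed between the classes for CDC14B (edgeR adjusted p = 0.00145 senile, 0.00623 mature) and PPP2R2C (0.00149 and 0.0455), the last of which was lost without 10 of the 15 retinas in turn and without the version term (log2 1.33, edgeR adjusted p = 0.234).

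**Figure D4:**
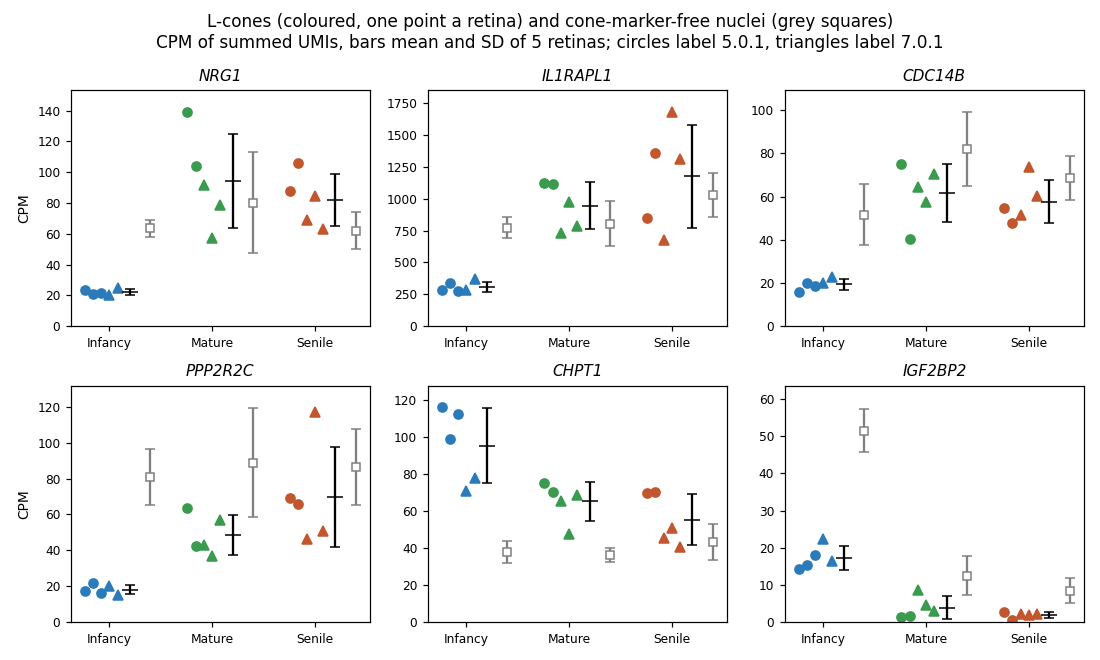
CPM of summed L-cone UMIs (vertical) by retina and stage for NRG1, IL1RAPL1, CDC14B, PPP2R2C, CHPT1 and IGF2BP2; circles are retinas labelled 5.0.1, triangles those labelled 7.0.1, black bars mean and SD of 5 retinas, and grey squares the mean and SD in cone-marker-free nuclei. The first 4 genes, named by a rule that asks for no overlap, are higher in every mature and senile retina than in any infant one. The grey squares differ less between stages for these genes, and IGF2BP2 is lower after infancy in both classes.

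Genes of lower abundance rose as well. RUBCNL, which acts in autophagosome maturation, lay at 4.92 ± 2.53 CPM in infant, 26.6 ± 5.33 CPM in mature and 23.0 ± 7.43 CPM in senile retinas (SD, n = 5). Its increase was 5.05-fold in mature (log2 SE 0.33, edgeR adjusted p = 7.56e-04) and 4.24-fold in senile L-cones (log2 SE 0.33, edgeR adjusted p = 0.00168). DSG2, a desmosomal cadherin, lay at 5.88 ± 2.86 CPM in infant, 21.0 ± 5.21 CPM in mature and 24.1 ± 9.23 CPM in senile retinas (SD, n = 5), with 3.63-fold (edgeR adjusted p = 0.0148) and 4.03-fold higher levels (edgeR adjusted p = 0.00615). The change in L-cones differed from that in cone-marker-free nuclei for RUBCNL in both comparisons (edgeR adjusted p = 0.00372 mature and 0.0136 senile) and for DSG2 in the senile one (adjusted p = 0.0478), which was lost without 11 of the 15 retinas in turn. The senile difference of RUBCNL was lost without Senile 1 (log2 1.53, edgeR adjusted p = 0.0522). Without the version term the senile differences of RUBCNL (log2 1.71, edgeR adjusted p = 0.0596) and DSG2 (log2 1.51, adjusted p = 0.366) did not pass, at sizes close to the 1.69 and 1.65 with it. The mature call of DSG2 was lost without Infancy 4 (log2 1.64, adjusted p = 0.0576) or without Mature 1 (log2 1.72, adjusted p = 0.0624). ITPR2, an IP3 receptor calcium channel, was 3.10-fold higher in mature (edgeR adjusted p = 5.64e-04) and 2.54-fold higher in senile L-cones (adjusted p = 0.00265), with Mature 1 at 82.1 CPM and Senile 1 at 63.0 CPM above the other retinas of their stages. BAALC was 2.53-fold higher in mature L-cones (edgeR adjusted p = 0.0342), a call lost without any 1 of Infancy 2 to 5 or Mature 1, 2 and 5 (log2 1.22 to 1.41, adjusted p = 0.0706 to 0.146). DPYD, the first enzyme of pyrimidine breakdown, was 4.35-fold higher in senile L-cones (edgeR adjusted p = 0.0201), and this call was lost without Infancy 1 or 4 or Senile 1 or 2 (log2 1.91 to 2.07, adjusted p = 0.0506 to 0.0865).

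The largest fold among named genes was that of OR10S1, which the annotation names as an olfactory receptor. It summed to 0.653, 0.713, 2.16, 0.618 and 0.675 CPM in infant, 15.3, 4.74, 6.06, 7.28 and 16.9 CPM in mature and 13.1, 16.2, 15.7, 22.3 and 19.6 CPM in senile L-cones. All senile retinas were above all infant ones. The infant values rest on few UMIs, so that the size of the fold is uncertain. The senile log2 fold change was 4.21 (SE 0.46, edgeR adjusted p = 3.29e-05) in L-cones and 2.33 (adjusted p = 0.0239) in cone-marker-free nuclei, so that it rose in both classes, by more in L-cones (difference 1.99, adjusted p = 0.0136). That difference was lost without Infancy 4 (log2 1.93, adjusted p = 0.0784).

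Fewer named genes fell. IGF2BP2, an RNA-binding protein of growing tissues, summed to 14.4, 15.2, 18.0, 22.4 and 16.4 CPM in infant, 1.28, 1.44, 8.70, 4.52 and 2.98 CPM in mature and 2.65, 0.524, 2.03, 1.80 and 2.20 CPM in senile L-cones. All infant retinas were above all others. Its log2 fold change was -2.46 in mature (SE 0.40, edgeR adjusted p = 0.00337) and -3.44 in senile L-cones (SE 0.42, edgeR adjusted p = 1.20e-04). It also fell in cone-marker-free nuclei, by 2.10 and 2.72 on the log2 scale, and the difference between the classes did not pass (adjusted p = 1 and 0.52).

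CHPT1, ABCD2 and ACSL3 were the other genes named by the rule as lower in senile L-cones. CHPT1, which makes phosphatidylcholine, summed to 116, 98.9, 112, 70.9 and 77.8 CPM in infant and to 69.6, 70.0, 45.5, 50.6 and 40.5 CPM in senile L-cones, with mature retinas at 75.1, 69.9, 65.2, 47.4 and 68.5 CPM. Senile retinas lay below infant ones without overlap. It fell to 0.584 of the infant level (log2 -0.78, SE 0.13, edgeR adjusted p = 0.00276), whereas its log2 fold change in cone-marker-free nuclei was 0.15, and the difference of -0.91 passed (adjusted p = 0.00145). ABCD2, a peroxisomal transporter of very-long-chain fatty acids, lay at 33.5 ± 5.93 CPM in infant, 27.4 ± 5.66 CPM in mature and 18.9 ± 3.59 CPM in senile retinas (SD, n = 5) (log2 -0.93, edgeR adjusted p = 0.0119). That call was lost without Infancy 4 (log2 -0.85, adjusted p = 0.0574). ACSL3, a long-chain acyl-CoA synthetase, lay at 218 ± 17.6 CPM in infant, 169.8 ± 32.3 CPM in mature and 153 ± 23.0 CPM in senile retinas (SD, n = 5) (log2 -0.55, edgeR adjusted p = 0.0248), and its call was lost without any 1 of the infant retinas or of Senile 2, 4 and 5 (log2 -0.56 to -0.48, adjusted p = 0.0533 to 0.129). With no filter on low counts the ACSL3 call was lost as well (log2 -0.49, edgeR adjusted p = 0.195). The calls of CHPT1 and ACSL3 were also lost without the version term in the model (log2 -0.88 and -0.62, adjusted p = 0.0807 and 0.114), with folds no smaller than with it.

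Within the libraries of 1 Cell Ranger label, with 2 or 3 retinas a stage, only the calls could be compared. The genes named by rule for their change between stages had been chosen for no overlap between the retinas, which fixes their directions in CPM. Among the 7 retinas labelled 5.0.1 their calls held, except those of ABCD2 (log2 -0.61, edgeR adjusted p = 0.317) and ACSL3 (log2 -0.55, adjusted p = 0.151) in senile and of BAALC (log2 1.54, adjusted p = 0.115) in mature against infant L-cones. Among the 8 retinas labelled 7.0.1, NRG1 (log2 1.66, edgeR adjusted p = 0.0486), CDC14B (1.52, 0.0406), OR10S1 (4.84, 0.0124) and IGF2BP2 (-3.28, 0.0232) passed for senile against infant L-cones, and none of the genes named by rule for mature against infant L-cones passed in that comparison (adjusted p = 0.057 to 0.496), with log2 fold changes of 1.20 to 1.92 for those higher (NRG1 1.74, adjusted p = 0.0658) and of -1.79 for IGF2BP2. Over the L-cones with at least 20 marker UMIs per 10000, 206 of the 236 and 158 of the 174 features passed again, and the genes named by rule for their change between stages kept their calls there, while the difference between classes of PPP2R2C in mature retinas did not (adjusted p = 0.101).

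Lists of cell maintenance and development were read against the same background of 1.42% and 1.05% of features called. In energy metabolism 21 of 35 genes were tested and none passed (medians 0.30 senile and 0.07 mature against infant). CKB, the brain creatine kinase, lay at 599 ± 33.4 CPM in infant, 695 ± 244 CPM in mature and 932 ± 685 CPM in senile retinas (SD, n = 5), and Senile 3 alone reached 2108 CPM. Of 83 nuclear-encoded genes of the respiratory chain 43 were tested, 27 were listed at 0, and none passed. Their log2 fold changes were positive in 36 of 43 for senile against infant L-cones (median 0.40) and in 9 of 43 for mature against infant L-cones (median -0.13). The medians over all features tested were 0.01 and -0.01, and these genes share the same retinas. COX4I1, a subunit of cytochrome c oxidase, lay at 109.7 ± 36.0 CPM in infant, 109 ± 42.9 CPM in mature and 234 ± 183 CPM in senile retinas (SD, n = 5), with Senile 3 at 542 CPM, and NDUFS4, a subunit of complex I, at 124 ± 17.3 CPM in infant, 119 ± 7.53 CPM in mature and 158 ± 22.8 CPM in senile retinas (SD, n = 5). The part of Senile 3, the retina with TTR and few cone marker UMIs, in these medians was not tested.

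In axon guidance 42 of 47 genes were tested. SEMA3C, a secreted semaphorin, was higher in mature L-cones (log2 2.46, edgeR adjusted p = 0.0228) with 0.653, 0.713, 0.719, 4.94 and 1.35 CPM in infant and 9.17, 20.8, 9.65, 8.03 and 5.96 CPM in mature retinas, and none passed in senile L-cones (medians 0.17 and 0.22). Of 32 developmental RNA-binding and neurite genes 17 were tested, and IGF2BP2 alone passed, lower in both comparisons. LIN28B, an RNA-binding protein of early development, lay at 68.9 ± 10.8 CPM in infant, 77.4 ± 26.2 CPM in mature and 80.4 ± 26.1 CPM in senile retinas (SD, n = 5), and DCX, a microtubule protein of young neurons, at 40.1 ± 6.96 CPM in infant, 46.5 ± 11.8 CPM in mature and 42.7 ± 9.10 CPM in senile retinas (SD, n = 5). None of 16 stress response genes (medians 0.08 and -0.24) or of 9 senescence genes (medians -0.04 and 0.09) passed. B2M, the light chain of class I histocompatibility molecules, had a senile minus infant log2 fold change of 2.04 (edgeR adjusted p = 0.307), with 106 CPM in Senile 3.

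**Figure D5:**
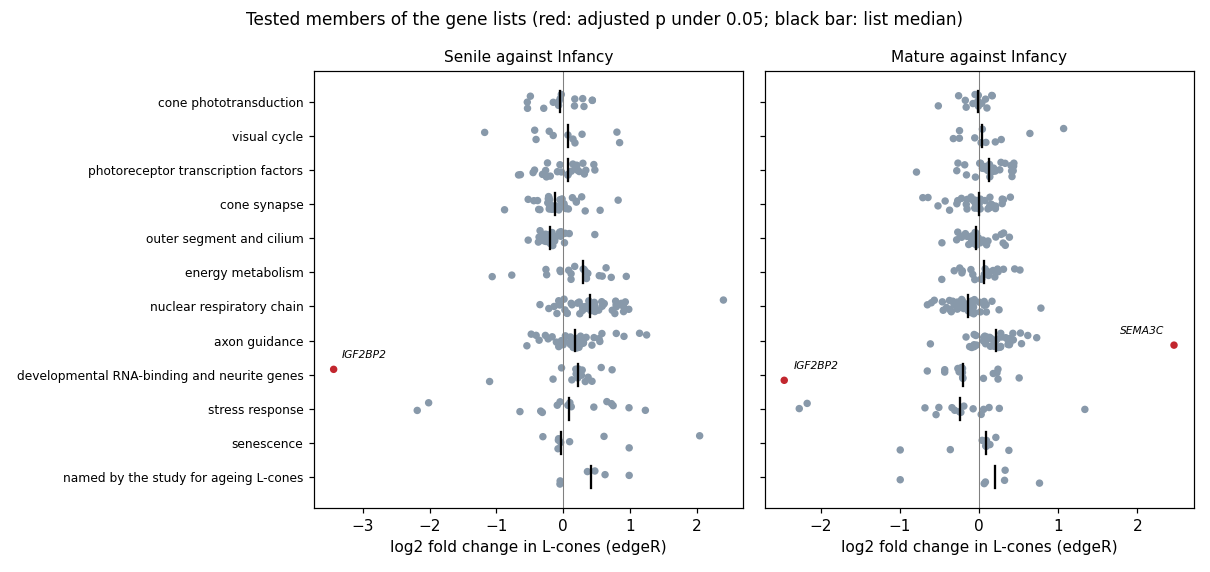
Log2 fold changes of the tested members of 12 gene lists in L-cones (horizontal) for senile against infant and mature against infant retinas; each point is a gene, and red marks those past an edgeR adjusted p of 0.05. Red points are IGF2BP2 in both comparisons and SEMA3C in the mature one, and most points lie within 1 log2 unit of 0.

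The study discussed several genes for ageing L-cones on these same samples, so that their directions here are not independent evidence. None of the 6 that could be tested passed in either comparison with the filter on low counts, while DACH1 (log2 0.52, edgeR adjusted p = 0.0218), INPP4B (0.68, 9.51e-04) and CST3 (1.09, 2.02e-09) passed without it for senile against infant L-cones, where 985 features did. DACH1, a transcription factor of retinal determination, lay at 849 ± 81.4 CPM in infant, 1049 ± 162 CPM in mature and 1212 ± 346 CPM in senile retinas (SD, n = 5) (senile minus infant log2 0.47, edgeR adjusted p = 0.369; without Senile 3 it was 0.60 with adjusted p = 0.0322). INPP4B, a phosphoinositide phosphatase, lay at 502 ± 83.3 CPM in infant, 854 ± 151 CPM in mature and 811 ± 161 CPM in senile retinas (SD, n = 5). Its log2 fold change was 0.77 in mature (edgeR adjusted p = 0.0682, and 0.0456 without the low-marker nuclei) and 0.63 in senile L-cones (edgeR adjusted p = 0.146, and 0.0232 without Senile 3, at 0.74). CADM2, a synaptic adhesion molecule, lay at 2317 ± 193 CPM in infant, 3027 ± 562 CPM in mature and 3201 ± 641 CPM in senile retinas (SD, n = 5) (senile minus infant log2 0.36, edgeR adjusted p = 0.522; without Senile 3 it was 0.48 with adjusted p = 0.0289). MAML2, a Notch coactivator, lay at 681 ± 68.3 CPM in infant, 706 ± 59.0 CPM in mature and 682 ± 141 CPM in senile retinas (SD, n = 5), and its log2 fold change of -0.05 had a 95% interval of -0.36 to 0.27. CST3, the secreted protease inhibitor cystatin C, lay at 1757 ± 1413 CPM in infant, 589.8 ± 512 CPM in mature and 1633 ± 1281 CPM in senile retinas (SD, n = 5), the widest spread of these genes. Its senile minus infant log2 fold change of 0.99 turned negative in the 7 retinas labelled 5.0.1 (-0.50), without the version term (-0.24) and without Senile 3 (-0.0765). The study names CST3 for the step from mature to senile cones, which is another comparison. There its log2 fold change in L-cones was 1.98 and did not pass.

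L-cones of 1 retina also differed among themselves. The dispersion between nuclei beyond counting error, at 1000 UMIs a nucleus, was taken for 689 features with a mean of at least 0.2 UMI, as the median over retinas. Among the 10 highest values were those of KCNH7, GRIK1li1, KCNIP4, ADARB2, ROBO2, ZNF804B, ADGRL2, CNTN4 and PCDH9, from 21.4 for KCNH7, a potassium channel, down to 8.69 for PCDH9, a protocadherin. KCNIP4, a potassium channel partner, had 20.9. Genes of phototransduction were not among the 10. Over the L-cones with at least 20 marker UMIs per 10000 (698 features), the highest values were 24.1 for GRIK1li1, a numbered copy of a glutamate receptor gene, 11.9 for ROBO2, an axon guidance receptor, and 10.9 for ZNF804B. These 3 features alone were among the highest 10 in both sets. The mean of at least 0.2 UMI was asked for in each set. Absence from the second set therefore does not show a smaller dispersion. The study used GRIK1 among its markers of bipolar cells. In pooled counts GRIK1li1 stood at 3711 CPM in the low-marker nuclei, 651 CPM in the other L-cones and 3839.9 CPM in cone-marker-free nuclei. ROBO2 stood at 2850.3, 445 and 3014 CPM and ZNF804B at 2583, 448 and 2502 CPM. All 3 were thus near the level of cone-marker-free nuclei in the low-marker nuclei and several times lower in the others. KCNH7 stood at 1375 CPM in the low-marker nuclei, 231 CPM in the other L-cones and 1274 CPM in cone-marker-free nuclei.

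A single noncoding feature, LINC-FRMD8-1, took 13.5 to 23.4% of the UMIs of the L-cones of a retina. CPM values of all other genes are relative to totals that hold it. GIPC2, a scaffold protein chosen after its values had been seen, rose from 46.7 ± 2.78 CPM in infant to 117 ± 39.1 CPM in senile L-cones (difference of change 1.53 on the log2 scale, edgeR adjusted p = 0.0123).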

How the data were processed

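Nuclei from frozen whole retinas of 15 TS (5 each in Infancy, Mature and Senile) had been profiled on the 10x Genomics platform. The authors ran Cell Ranger against the TS_3.0 genome and deposited raw UMI counts per feature and barcode, not normalized, for 83605 features in 1 matrix per retina; the feature and barcode names (no score or unit) came with them. Per the labels Cell Ranger 5.0.1 was used for 7 libraries and 7.0.1 for 8, whereas the file headers name 6.1.2 for the same 7 and 7.0.1 for the others. Counting of intronic reads is not given in the sources used here, and the program's default differs between versions, so version was a term of each model. The labels also separate the blocks in which libraries were deposited, and they differ in depth. Median UMIs of an L-cone averaged 2861 over retinas labelled 5.0.1 and 6880 over those labelled 7.0.1. Program version, block and depth therefore cannot be told apart where retinas split by label. Libraries held 13429873 to 58734300 UMIs; their number and the number of nuclei limit precision.

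L-cone counts were summed per retina and fitted with edgeR 4.0.16 in R 4.3.3 (TMM, filterByExpr by stage, quasi-likelihood test, model of stage and version over all 15 retinas, Benjamini-Hochberg adjustment over all features tested, threshold 0.05). The 9 genes of the membership rule were left out of the tests. Standard errors were the log2 fold change over the square root of F, and 95% intervals used 11 residual degrees of freedom. Differences between L-cones and cone-marker-free nuclei came from an interaction model with the retina as a block. Shares of nuclei were compared by 2-sided exact permutation of retinas. Doublets were scored after Scrublet, calling the highest 8 per 1000 for every 1000 nuclei, and kept except in an alternative.

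On counts simulated from these retinas for senile against infant L-cones (16178 genes), 92% of 4-fold and 34% of 2-fold changes were recovered with 1 false call, so that a smaller change that did not pass may have gone undetected. The changed genes were drawn from the more abundant ones, and all retinas were simulated from a single pooled profile without a version effect. Recovery and false calls in the real counts may therefore be worse. Named genes were, per comparison, up to 8 higher and 8 lower named features with the largest fold among those that passed, whose retinas did not overlap and that reached 10 CPM in each retina of the stage with more, beside members of the lists, genes the study names, OPN1LW and the 10 features with the highest dispersion; a gene outside this is said to be chosen afterwards. Members and lists were chosen with earlier results of these data known. Alternatives were DESeq2 1.42.0, no filter, no version term, thinning, at least 4 markers, doublets removed, 1 version alone, a replicate block, each retina left out and, added after the data had been seen, at least 20 marker UMIs per 10000. Python 3.11.15 with scipy 1.17.1 was used for the rest. A few genes of these lists are not reported here.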

Additional observations from a re-analysis of the deposited data

Results flagged for a closer look

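Single retinas lay far from the others of their stage in 5 of 69 groups of 5 retinas examined; chance alone flags about 1 in 20 such groups. DPYD stood at 6.52 CPM in Infancy 5, OR10S1 at 2.16 CPM in Infancy 3, and ITPR2 at 82.1 CPM in Mature 1 and at 63.0 CPM in Senile 1, each above the other 4 retinas. OPN1LW was found in 92.1% of the L-cones of Senile 1, the highest share of its stage.

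For 8 named genes the senile minus infant log2 change in L-cones differed from that in cone-marker-free nuclei of the same retinas by the edgeR interaction test: OR10S1 by 1.99, RUBCNL by 1.69, DSG2 by 1.65, PPP2R2C by 1.71, IL1RAPL1 by 1.44, NRG1 by 1.98, CDC14B by 1.17 and CHPT1 by -0.91. For mature minus infant changes the differences that passed were those of RUBCNL (1.97), NRG1 (1.91), CDC14B (1.02), IL1RAPL1 (1.54) and PPP2R2C (1.24). Over all 23496 features tested, 61 passed for senile (0.26%) and 23 for mature retinas (0.0979%). These genes had been named for a large change in the same L-cone counts, which favours such a difference. The senile difference of DSG2 was lost under 13 alternatives and kept under 6. The mature difference of PPP2R2C was lost under 12 and kept under 7.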

How the results depend on the processing

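The share of L-cones was higher in senile than in infant retinas in all settings, by 7.23 to 10.5 points with 1 retina left out, but the call was lost after thinning (5.54), with at least 4 markers (3.65), within version (9.39), with at least 20 marker UMIs per 10000 (7.89) and in the paired test over replicate numbers, a replicate block by sign flips (8.85, adjusted p = 0.281), which allows no p below 0.0625 and so could not have kept it. It held with doublets removed and without any 1 of the senile retinas. For mature against infant retinas the range with 1 retina left out was -0.141 to 5.98, and for senile against mature retinas 2.86 to 8.99.

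Features changed in senile against infant L-cones numbered 394 with DESeq2, 985 without a filter, 155 with the replicate block, 150 with each retina's L-cone UMIs thinned to the smallest total and 79 in the 7.0.1 libraries, and 181 to 256 with 1 retina left out. For mature against infant L-cones they numbered 330 (DESeq2), 657 (no filter), 112 (no version term), 102 (replicate block), 262 (5.0.1 alone) and 35 (7.0.1 alone), and 111 (without Infancy 4) to 209. For senile against mature L-cones they numbered 40 (DESeq2), 469 (no filter), 1 (at least 4 markers), 14 (5.0.1 alone) and 1 (at least 20 marker UMIs per 10000), and 0 to 2. Differences from cone-marker-free nuclei numbered 711 without a filter, 19 without version and 36 with the replicate block for senile retinas, and 29 to 70 with 1 retina left out (39, 34, 29 and 37 without Infancy 2, 4, 5 and Senile 4), against 187 (no filter), 11 (no version term) and 17 to 40 (40 without Senile 3) for mature ones. The cause of these differences was not tested.

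Directions turned for OPN1LW (0.25 in 5.0.1 libraries, -0.27 to 0.11 with 1 retina left out), THRB (0.0534, -0.14 to 0.0839), MAML2 (0.0473, 0.00207 without a filter, 0.00217 with the block, -0.11 to 0.0644) and CST3 (-0.24 without version, -0.50 in 5.0.1 libraries, -0.0765 to 1.42), none of which had passed. Of all values of named genes under alternatives, 987 kept direction and side of the threshold, 81 lost the call, 15 gained it and 16 turned. Replicate numbers were not taken to pair the retinas, because only 11 of 15 same-numbered pairs deviated together (r over 0.1, range -0.38 to 0.50), and 6 of 15 retinas correlated best with their own number. Over all pairs of retinas from different stages the median r was 0.33 with the same Cell Ranger label and -0.30 with different ones. With the replicate block the senile calls of CHPT1 (log2 -0.77, adjusted p = 0.0503), DPYD (2.18, 0.08), ABCD2 (-0.95, 0.0909) and ACSL3 (-0.59, 0.0715), the mature calls of DSG2 (2.02, 0.0884) and BAALC (1.16, 0.266), and the differences between classes of OR10S1 (1.98, 0.0887) and DSG2 (1.61, 0.147) in senile and of CDC14B (1.00, 0.0538) in mature retinas did not pass, which does not show a smaller change.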
